A study of Homo sapiens with 4 samples.

Results

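Isolated binding sites of CEBPB were defined as the reproducible ChIP-seq sites, on chromosomes 1 to 22 and X, that had no other called peak of either replicate within 50 kb on either side. A peak that overlapped the site itself did not count as another peak. Of 25602 reproducible sites, 610 met this rule (2.38%, 95% exact binomial interval 2.20 to 2.58%), and 24992 other sites did not. The members were chosen from the positions of the peaks called over input. Differences between isolated and other sites in peak spacing, height, width or background are therefore given as descriptions with no test.

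The study mapped CEBPB in NCM460, an established line of human colon epithelial cells, with 2 CEBPB ChIP samples and 2 input samples of sonicated chromatin. The cells carried no stated treatment or genetic change and were grown in DMEM with serum, and the antibody was Abcam ab32358. The replicates are described as separate experiments, but a single line is one genetic background, and no CEBPB-deficient cells were among the samples. Reproducible sites are those in the authors' deposited IDR table (IDR, irreproducible discovery rate), which keeps peaks whose rank matches between the replicates, at an IDR of at most 0.05.

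CEBPB belongs to the C/EBP family of transcription factors, which bind DNA as dimers through a basic region and a leucine zipper. In epithelial cells it is known for roles in acute phase and inflammatory gene expression and in differentiation. Its sites usually lie in enhancers, which tend to be grouped near active genes, and long stretches with few genes also hold few active enhancers. Giemsa-dark cytogenetic bands are the classical gene-poor, AT-rich part of the genome. No site was assigned to a gene and no site sequence is shown, because the positions are hg19 and no hg19 sequence or annotation was used here. Gene names below say only what a band is known to carry.

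The isolated sites were the far tail of a continuous spread of distances. The nearest other peak lay a median of 68.8 kb from an isolated site (quartiles 57.7 and 102 kb, longest 561 kb), against 3.26 kb from the other sites (quartiles 1.02 and 8.71 kb). There was no gap in the distribution at 50 kb. The last sites inside the limit lay in 10p14 (chromosome 10, 9020064 to 9020397) with a nearest peak at 50024 bp, and in 12q14.1 (chromosome 12, 58387664 to 58387922) at 50136 bp. The first sites outside it lay in 8p21.3 (chromosome 8, 21349179 to 21350242) at 49970 bp and in 7q21.11 (chromosome 7, 77612351 to 77612628) at 49964 bp. Of the isolated sites, 158 had no other peak within 100 kb and 32 had none within 200 kb.

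**Figure D1:**
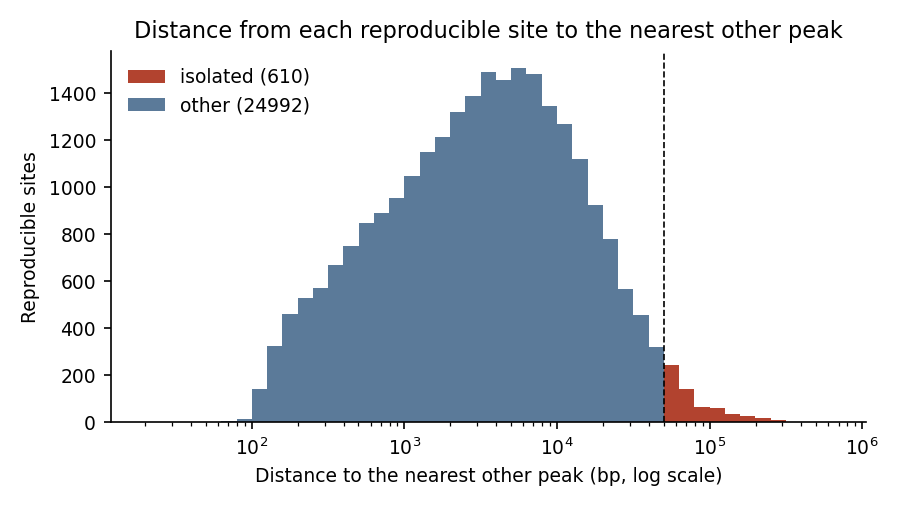
Histogram of the distance in bp (log scale) from each of the 25602 reproducible sites to the nearest other peak of either replicate; the dashed line marks 50 kb. The 610 isolated sites form the right tail of a single spread whose other 24992 sites have a median distance of 3.26 kb.

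What lay nearest to an isolated site was mostly a weak peak of 1 list. For 341 of the 610 sites (55.9%) the nearest peak had no overlapping peak in the other replicate, and for 282 of them it was a peak of replicate 2 alone. The same share was not taken for the other sites. Peaks of 1 list were common elsewhere too. Overlapping peaks of both lists were joined into loci, and 106891 loci had another within 50 kb. Of these, 31.9% were peaks of replicate 2 alone and 12.3% of replicate 1 alone. For 142 sites the nearest peak was in both lists but not in the IDR table, and for 127 sites (20.8%) it was itself part of a reproducible site. These nearest peaks had a median of 19 fragments, the extended ChIP reads stacked at a summit. Measured to the next reproducible site, the isolated sites were therefore farther apart, at a median of 138 kb (quartiles 79.3 and 264 kb), against 17.6 kb for the other sites. In 56 of the 610 isolated sites (9.18%) no other reproducible site lay within 500 kb, against 108 of the 24992 other sites (0.432%). The rule leaves no reproducible site within 50 kb of an isolated one, so these contrasts are partly fixed by it.

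Most isolated sites still had peaks farther out. A window of 1 Mb centred on an isolated site held a median of 16 peaks of replicate 1 and 22 peaks of replicate 2, the site's own included, whereas the window around another site held 40 and 51. The rule keeps 50 kb on either side of an isolated site free of other peaks, so its lower counts are partly fixed. The spread was wide, from 1 to 67 peaks of replicate 1 around the isolated sites. Isolation at 50 kb thus took in lone sites of peak-poor stretches together with sites that stood apart in regions rich in peaks.

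The most isolated site lay in 9p23 on chromosome 9 at 10059131 to 10059465, 561 kb from the next peak on its left and 811 kb from the next on its right. It was the only peak of both lists in its 1 Mb window, and the next reproducible site was 2444 kb away. Band 9p23 carries part of PTPRD, a very long gene for a receptor tyrosine phosphatase. The site had 27 fragments in replicate 1 and 40 in replicate 2, and a mean fold of 13.5 ± 0.71 (SD, n = 2). Fold here is the authors' enrichment of pileup over input background at the summit, with a pseudocount of 1 on both.

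Of the other sites farthest from any peak, those on chromosome 2 were low. The site in 2q14.1 (chromosome 2, 116368520 to 116368784) lay in a band that carries the potassium channel subunit gene DPP10. Its nearest peak was 441 kb away, and it had 19 and 25 fragments in replicates 1 and 2. The site in 2q24.1 (chromosome 2, 156672467 to 156672725) had its nearest peak 373 kb away and had 24 and 23 fragments. Their mean folds were 9.10 ± 0.27 and 9.34 ± 1.57 (SD, n = 2 each), near the lowest folds in the IDR table, which were 7.44 in replicate 1 and 8.05 in replicate 2 among the isolated and the other sites alike. A higher one lay in Xq21.1 (chromosome X, 83618078 to 83618436), with its nearest peak 372 kb away. It had 64 and 65 fragments and a mean fold of 26.3 ± 5.40 (SD, n = 2).

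Across all members, isolated sites were lower than the others. They had medians of 36 fragments in replicate 1 (quartiles 25 and 57) and 51 in replicate 2 (quartiles 36 and 75.8), against 58 (37 and 94) and 77 (52 and 117) for the other sites. The medians of the isolated sites were thus 0.64 ± 0.029 times those of the others (SD, n = 2). The ranges overlapped almost fully, from 15 to 267 fragments in replicate 1 for isolated sites and from 15 to 299 for the others. The share of isolated sites fell steadily with height: of the 2561 sites in the lowest decile of fragments, both replicates summed, 7.07% were isolated (exact binomial interval 6.10 to 8.13%), and of the 2561 in the highest decile 0.469% were (0.24 to 0.82%). Binomial intervals cover counting error over sites only, and neighbouring sites are not independent.

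**Figure D2:**
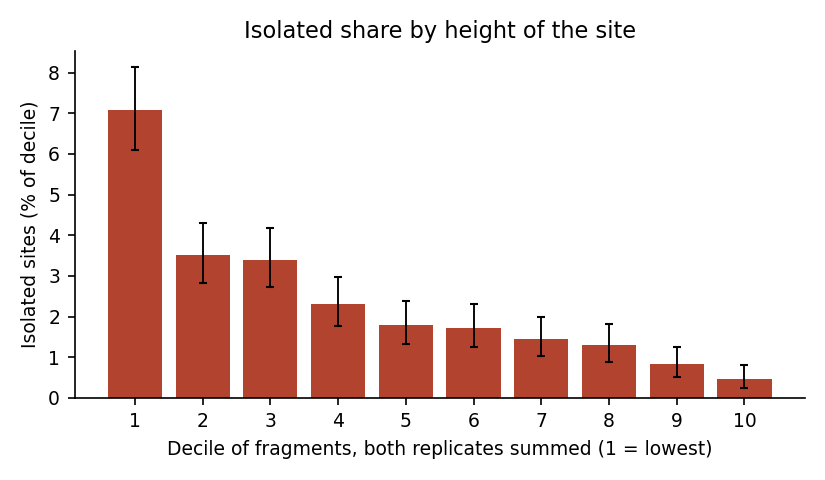
Percent of reproducible sites that were isolated in each decile of fragments at the summit, replicates 1 and 2 summed, from the lowest (1) to the highest (10); error bars are 95% exact binomial intervals. The share is 7.07% in decile 1 and 0.469% in decile 10.

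The authors' fold differed less between the groups than the fragments did. Its median was 13.3 in replicate 1 and 14.3 in replicate 2 at isolated sites, against 15.3 and 16.0 at the others, a ratio of 0.88 ± 0.015 (SD, n = 2). The input background under the sites moved in the same direction. It is given in units of the peak caller's scaled pileup, in which 1 fragment counts 0.927 in replicate 1 and 0.800 in replicate 2. Its medians were 1.22 and 1.61 units in replicates 1 and 2 at isolated sites, against 2.30 and 2.81 at the others, a ratio of 0.55 ± 0.027 (SD, n = 2). In replicate 1, 255 isolated sites (41.8%, interval 37.9 to 45.8%) sat at the floor, the lowest background the peak caller assigns anywhere in the genome, against 9.60% of the others (9.24 to 9.98%). In replicate 2 the shares were 42.3% (38.3 to 46.3%) and 10.2% (9.81 to 10.6%). The floor is a minimum, so a lower input cannot be read at these sites.

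The same order held along the whole range of distances. In classes of nearest distance under 1 kb, 1 to 5, 5 to 10, 10 to 25, 25 to 50 and over 50 kb, the median fragments of replicate 1 were 68, 61, 54, 50, 43 and 36. Those of replicate 2 were 86, 80, 74, 69, 60 and 51. The share of sites at the background floor in replicate 1 was 4.35, 6.39, 11.8, 16.6, 26.9 and 41.8% in the same classes. Among the isolated sites themselves, the 32 with no peak within 200 kb had medians of 25.5 and 35.5 fragments in replicates 1 and 2, and 21 of the 32 were at the floor in each replicate. Across the 610 sites, however, distance and fragments had a Spearman rho of -0.06 in replicate 1 and -0.09 in replicate 2, over sites that share their library and depth. The rho was -0.25 and -0.26 among the 158 sites with no peak within 100 kb. Among the 452 sites at 50 to 100 kb it was 0.05 in each replicate.

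**Figure D3:**
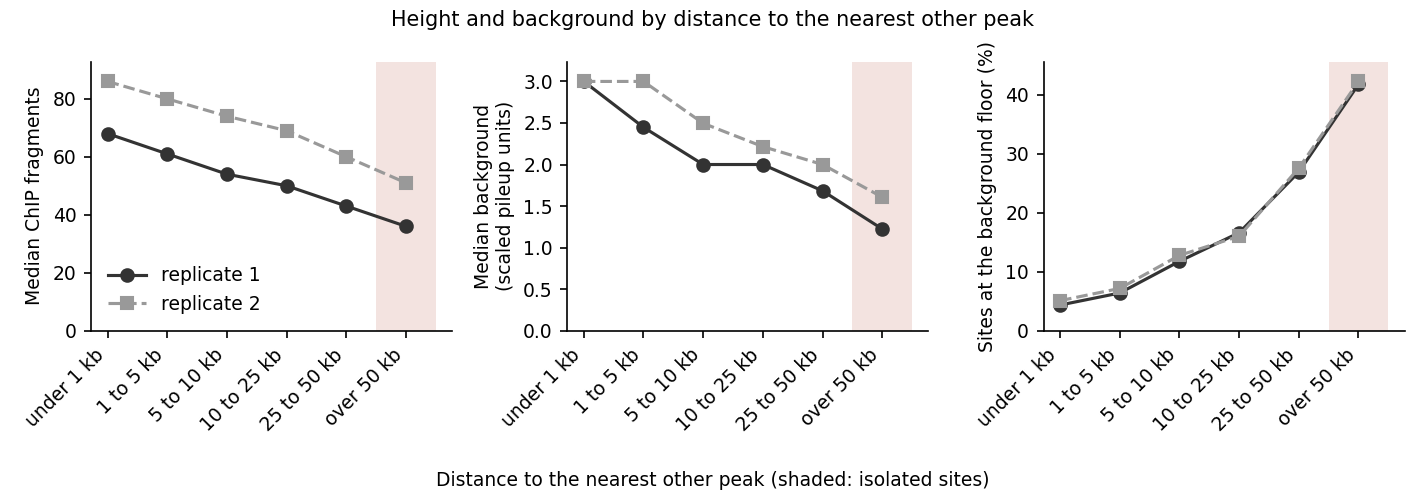
Median ChIP fragments (left), median input background in scaled pileup units (middle) and percent of sites at the background floor (right) for reproducible sites in 6 classes of distance to the nearest other peak, for replicate 1 (circles) and replicate 2 (squares); the shaded class holds the 610 isolated sites. Median fragments in replicate 1 are 68 in the nearest class and 36 in the isolated class, and the share at the floor is 4.35% and 41.8%.

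Set beside sites of equal height, isolated sites lay over a lower background. The median background of isolated sites was lower in 9 of 10 deciles of fragments in replicate 1, equal in the remaining one, and lower in all 10 in replicate 2. Fold is computed from the fragments and this background, so with fragments held alike it restates the background. The median fold of isolated sites exceeded that of the others in all 10 deciles, by 1.01 to 1.45 times in replicate 1 and 1.01 to 1.34 times in replicate 2. Among sites with 30 to 45 fragments in replicate 1 and 40 to 60 in replicate 2, the 81 isolated ones had median folds of 14.4 and 15.01 in replicates 1 and 2, against 11.8 and 12.6 for 2718 others. Their background was 1.42 and 1.64 units, against 2.00 and 2.06. The part of the lower input in the lack of weak neighbouring peaks was not tested.

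Isolated sites were narrower over all members. The IDR table merges the overlapping peaks of both replicates into 1 interval, whose median width was 334 bp at isolated sites (quartiles 292 and 414 bp), against 424 bp for the other sites (339 and 566 bp). At equal height, in the class above, the widths were 334 and 348 bp. Isolated sites were narrower in 8 of 10 deciles of fragments and wider in the highest ones, with 541 bp at 21 isolated sites against 523 bp in decile 9 and 889 bp at 12 isolated sites against 601 bp in decile 10. More than 1 entry of the IDR table fell on 18 isolated sites (2.95%, interval 1.76 to 4.62%), against 6.21% of the others (5.92 to 6.52%). The replicates placed the summit a median of 10 bp apart at isolated sites and 8 bp apart at the others, and 98.7% and 98.8% of these summits lay within 50 bp of each other. At a stricter IDR of at most 0.01, 312 isolated sites remained (51.1%, interval 47.1 to 55.2%), against 60.8% of the others (60.2 to 61.4%).

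The widest isolated site was an interval of joined peaks. It lay in 6q21 on chromosome 6 at 111549323 to 111551997, spanned 2675 bp and held 5 entries of the IDR table. The peaks at its entry of highest fold were 470 and 407 bp wide in replicates 1 and 2 and had 120 and 201 fragments. The nearest peak outside it was 51.5 kb away. A site in 5p15.32 (chromosome 5, 6158858 to 6160079) had the most fragments of any isolated site, 267 in replicate 1 and 274 in replicate 2. Its mean fold was 21.3, and its background was also the highest among them, 10.0 units in each replicate.

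A minority of isolated sites belonged to the strongest sites of the series. A mean fold of at least 40 was reached by 15 isolated sites (2.46%, interval 1.38 to 4.02%), against 709 of the others (2.84%, 2.63 to 3.05%), and these intervals overlapped. By wider measures strong sites were fewer among the isolated ones. The top decile of mean fold held 6.07% of the isolated sites (4.31 to 8.26%) and 10.1% of the others (9.73 to 10.5%), and more than 150 fragments in both replicates occurred at 1.64% (0.79 to 2.99%) and 7.88% (7.55 to 8.22%). The strongest lay in 2p24.3 (chromosome 2, 12596408 to 12597305). It had folds of 66.7 in replicate 1 and 63.3 in replicate 2 and 215 and 263 fragments. The nearest peak was 50.3 kb away, so this site only just met the rule, and the next reproducible site was 368 kb away. Band 2p24.3 carries TRIB2, a pseudokinase gene of the Tribbles family whose product is known to promote degradation of the related factor C/EBP alpha.

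The remaining strong sites differed in how well the folds of the replicates matched, and fold depends on the background as well as on the fragments. The site in 2p14 (chromosome 2, 68073402 to 68073876) had a mean fold of 57.2 ± 7.94 (SD, n = 2), with 166 and 184 fragments in replicates 1 and 2. The site in 11q22.1 (chromosome 11, 101198619 to 101199151), which was also the only one of the 10 strongest in a band of the darkest stain class, reached 56.0 ± 3.88 with 118 and 172 fragments. Sites in 9q21.13 (chromosome 9, 77575480 to 77575908) and 1p22.3 (chromosome 1, 85600273 to 85601393) reached 52.3 ± 15.9 and 50.2 ± 11.9. The site in 9q21.13 had 143 and 154 fragments in replicates 1 and 2, on backgrounds of 1.10 and 2.03 units. The site in 1p22.3 had 179 and 232 fragments, on backgrounds of 3.00 and 2.18 units. Sites in 8p23.3 (chromosome 8, 2130836 to 2131376) and 7q22.3 (chromosome 7, 105987067 to 105987601) reached 44.9 ± 7.24 and 44.8 ± 4.59. The SDs of several of these sites are as large as the differences between their means, so their rank is not resolved.

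A further 3 of the 10 strongest lay in bands known for large segmental duplications. The site in 9p11.2 (chromosome 9, 46290980 to 46291869) had folds of 81.9 in replicate 1 and 41.7 in replicate 2, although its fragments were alike at 176 and 173. Replicate 1 had the floor background of 1.00 there and replicate 2 had 2.34. The site in 1q21.1 (chromosome 1, 146152716 to 146153603) showed the same pattern, with folds of 67.5 and 36.8, 172 and 183 fragments, and backgrounds of 1.38 and 3.00. The site in 1q21.2 (chromosome 1, 149374401 to 149374876) had folds of 40.8 and 55.9 on 219 and 218 fragments. The sources used here do not say how reads that match several copies were placed, and its part in the isolation of these sites was not tested.

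The density of isolated sites lay between 0.184 and 0.276 per Mb in the 5 stain classes of chromosome bands from Giemsa-negative to darkest, and was highest in the class below the darkest. Centromeric bands held 4 isolated sites (0.039 per Mb) and variable bands 5 (0.051 per Mb), and stalk bands held no reproducible site. It was 0.200, 0.184 and 0.196 per Mb in Giemsa-negative bands and in the classes 25 and 50, and 0.276 and 0.225 per Mb in the classes 75 and 100, the darkest. The exact Poisson intervals of the lightest and the darkest class, 0.177 to 0.226 and 0.185 to 0.270 per Mb, overlapped, whereas that of class 75, 0.227 to 0.332 per Mb, lay above that of the Giemsa-negative bands. The other sites had densities of 10.3, 11.1, 8.68, 7.27 and 5.48 per Mb in the same order. Giemsa-negative bands, 42.4% of the genome, held 42.3% of the isolated sites (interval 38.3 to 46.3%) and 53.2% of the others (52.6 to 53.9%). The darkest bands, 16.4% of the genome, held 112 isolated sites, or 18.4% (15.4 to 21.7%), and 10.9% of the others (10.5 to 11.3%).

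**Figure D4:**
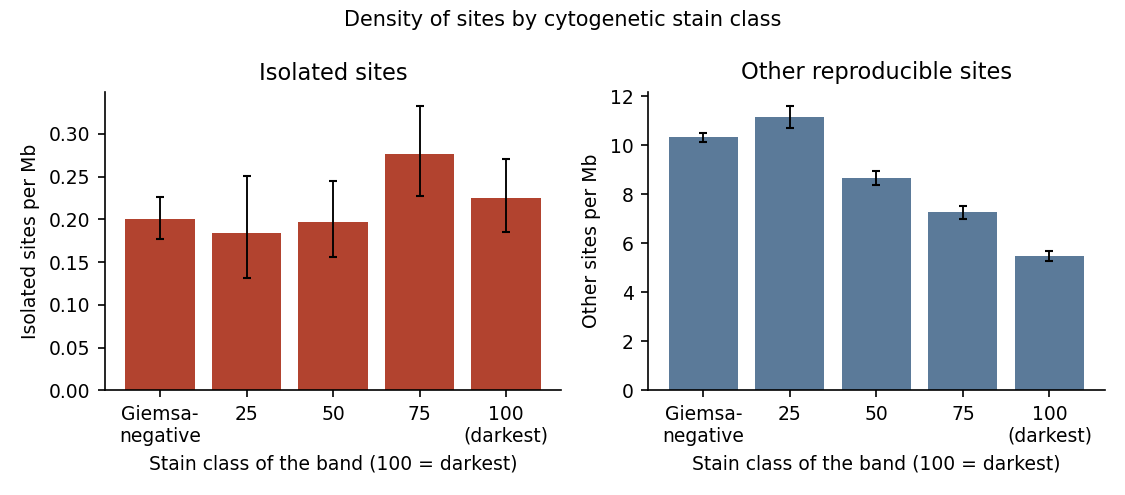
Isolated sites per Mb (left) and other reproducible sites per Mb (right) in cytogenetic bands by Giemsa stain class, from negative to 100, the darkest; error bars are 95% exact Poisson intervals. The density of isolated sites is 0.200 per Mb in negative and 0.225 per Mb in the darkest bands, whereas that of the other sites is 10.3 and 5.48 per Mb.

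The share of reproducible sites that were isolated was higher in the 2 darkest classes than in the lighter ones. It was 1.90% in Giemsa-negative bands (interval 1.68 to 2.15%), 1.63% in class 25, 2.21% in class 50, 3.66% in class 75 and 3.94% in the darkest class (3.25 to 4.72%). On few sites, it was 5.97% in centromeric bands (1.65 to 14.6%) and 15.2% in variable bands (5.11 to 31.9%). Inside each of the 5 stain classes the isolated sites remained lower than the others. In the darkest bands they had medians of 30.5 and 47 fragments in replicates 1 and 2, against 53 and 73, and in Giemsa-negative bands 39 and 53, against 59 and 77. The median backgrounds in Giemsa-negative bands were 1.38 and 2.00 units, against 2.30 and 2.81, and in the darkest bands 1.03 and 1.36, against 2.00 and 2.50.

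The chromosomes differed in the same way. Isolated sites made up 5.36% of the reproducible sites on X (39 sites, interval 3.84 to 7.26%), 5.17% on chromosome 13 (32 sites, 3.56 to 7.22%), 4.97% on chromosome 18 (23 sites, 3.17 to 7.36%) and 4.87% on chromosome 4 (54 sites, 3.68 to 6.31%). They made up 0.890% on chromosome 17 (10 sites, 0.43 to 1.63%), 0.955% on chromosome 21 (3 sites, 0.20 to 2.77%) and 1.02% on chromosome 19 (7 sites, 0.41 to 2.10%). Per Mb of chromosome the extremes were 0.295 on chromosome 18 and 0.062 on chromosome 21, against 0.201 over all. The background at isolated sites differed too. In replicate 1, 48.7% of the isolated sites of X, 68.8% of chromosome 13, 60.9% of chromosome 18 and 61.1% of chromosome 4 were at the floor. On chromosome 17, 3 of the 10 were, against 41.8% of all isolated sites. In replicate 2 the shares were 66.7, 62.5, 69.6 and 66.7% on X, 13, 18 and 4. On chromosome 17, 1 of the 10 was, against 42.3% of all isolated sites. The part of the background in the shares of the chromosomes was not tested.

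Isolated sites were scattered thinly over 386 of 851 bands, and the largest numbers in a band were on X. Band Xq23 held 10 of them among 31 reproducible sites, or 1.28 per Mb (Poisson interval 0.615 to 2.36). Their fragments ran between 16 and 90 in replicate 1 and between 31 and 121 in replicate 2, with nearest peaks at 51.4 to 297 kb. Band Xq21.1, of the darkest class, held 6 among 22 sites, or 0.70 per Mb. Among bands with 3 or more isolated sites, densities near that of Xq23 rested on fewer isolated sites in smaller bands. They were 1.25 per Mb in 15q13.3 and in 18q21.31 and 1.21 per Mb in 13q33.3. Bands with fewer isolated sites could be denser, as was 6p21.32 with 2 in 1.4 Mb. Band 2p24.3 held 5 among 11 and band 19q12 held 4 among 8, the 4 of 19q12 all low at 16 to 32 fragments in replicate 1 and 28 to 49 in replicate 2. In 2p24.3 the strongest site of all isolated sites stood beside sites with as few as 18 and 28 fragments in replicates 1 and 2.

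Most isolated sites stood between sites that were not isolated, but some followed one another. In the order of reproducible sites along the chromosome, 128 of the 610 isolated sites (21.0%) were next to another isolated site, whereas 1047 of the 24992 other sites (4.19%) were next to an isolated one. Neighbours share the distance between them, which the rule used, so these shares are a description. Of the 128, 94 formed pairs, 30 formed runs of 3 and 4 formed a single run. That run of 4 spanned 2.86 Mb of Xq21.1 (chromosome X, 81130354 to 83990301). Its sites had 19, 55, 64 and 17 fragments in replicate 1 and 40, 59, 65 and 32 in replicate 2, in order along the chromosome. The longest run spanned 5.46 Mb from 9p24.1 to 9p23 (chromosome 9, 7042141 to 12504098) and held 3 reproducible sites with the most isolated site in the middle. Its other members had 56 and 53 fragments in replicate 1 and 74 and 70 in replicate 2.

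Few isolated sites lay near centromeric, variable or stalk bands or chromosome ends, but near these bands the share exceeded that of the others. Gaps in the assembled sequence were not examined. Within 1 Mb of a centromeric, variable or stalk band lay 19 isolated sites (3.11%, interval 1.89 to 4.82%), against 1.20% of the others (1.07 to 1.34%). Within 1 Mb of a chromosome end lay 13 (2.13%, 1.14 to 3.62%), against 1.34%. The 19 sites had medians of 39 and 49 fragments in replicates 1 and 2, close to the 36 and 51 of the remaining 591. Of the 19, 13 were at the background floor in replicate 1 and 11 in replicate 2.

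The replicates were compared at each site by the share of its fragments that came from replicate 1, against the median share among sites of like height. Over all reproducible sites 748 of 25602 differed by more than counting noise (2.92%; two-sided exact binomial tests with Benjamini-Hochberg adjustment over all sites, adjusted p at most 0.05). Among isolated sites 12 of 610 did, or 1.97% (interval 1.02 to 3.41%), which includes the background share. Replicate 1 was higher at 8 of these (1.31%, background 1.7%) and replicate 2 at 4 (0.656%, background 1.22%). The tests compare 2 libraries, not conditions, and fewer fragments at isolated sites leave less room for a call.

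The differences of smallest adjusted p ran both ways. In 1q32.1 (chromosome 1, 204616036 to 204616628) replicate 1 had 89 fragments and replicate 2 had 45, a log2 ratio of 1.39 above that of sites of like height (exact binomial test, adjusted p = 9.0e-05). In 12p12.1 (chromosome 12, 23808072 to 23808404) replicate 1 had 28 and replicate 2 had 102, a log2 ratio of -1.45 relative to sites of like height (exact binomial test, adjusted p = 0.000385). In 8q24.13 (chromosome 8, 124001015 to 124001386) they had 64 and 36, a log2 ratio of 1.33 relative to sites of like height (exact binomial test, adjusted p = 0.0021). Among the 12 sites the background was at the floor in replicate 1 at 1 and in replicate 2 at 4.

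**Figure D5:**
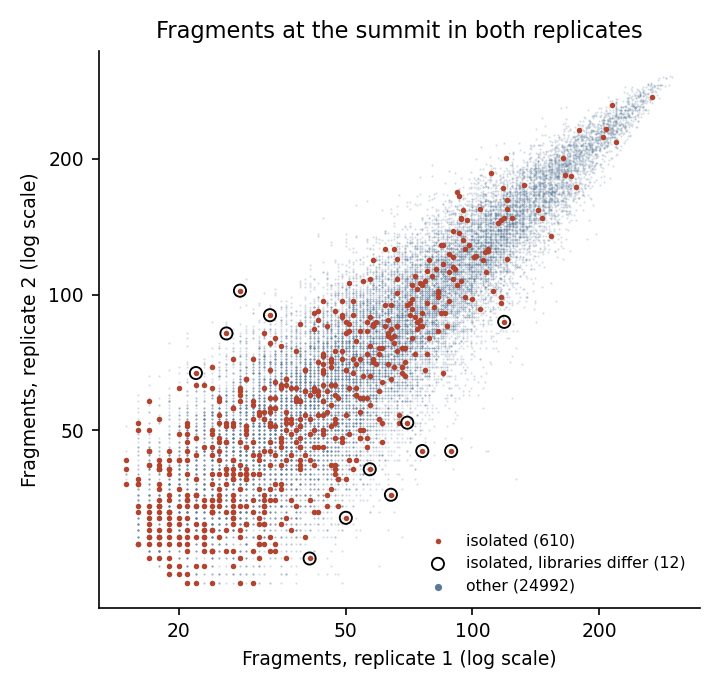
Fragments at the summit in replicate 1 and replicate 2 (both axes log scale) for the 610 isolated sites (red), the 12 of them at which the libraries differed (circled) and the 24992 other sites (blue). The isolated sites lie mostly at the low end of the same band of points, with medians of 36 and 51 fragments.

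Fragments were fewer in replicate 1 at most sites of either kind. The median ratio of replicate 1 to replicate 2 was 0.73 over all isolated sites (quartiles 0.59 and 0.89) and 0.78 at the others (0.64 and 0.91), and replicate 1 had more fragments at 12.8% and 12.98% of them. Across sites the fragments of the replicates had a Spearman rho of 0.784 over the 610 isolated sites and 0.891 over the others, and the folds 0.533 and 0.608. Sites share their libraries and the IDR table keeps only sites of matching rank. These values describe the lists.

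The share of reproducible loci was also taken over all lone peaks, as a description. Merging the overlapping peaks of both lists gave 4098 loci with no other locus within 50 kb, of which 607 (14.8%, interval 13.7 to 15.9%) carried a reproducible site, against 25423 of 106891 other loci (23.8%, 23.5 to 24.0%). Loci are a different unit from sites, so these counts differ from the 610 isolated and 24992 other sites. A site can be counted at more than 1 locus. Peaks of replicate 2 alone made up 52.9% of the lone loci and 31.9% of the other loci, and peaks of replicate 1 alone made up 9.64% and 12.3%. A further 929 lone loci (22.7%) were in both lists but not in the IDR table, with medians of 15 and 23 fragments in replicates 1 and 2. The lone reproducible loci had medians of 36 and 51 fragments. At the other loci these medians were 58 and 77 for reproducible ones, against 20 and 29 for those in both lists but not in the IDR table. The IDR table selects peaks by rank, so these contrasts only describe the lists.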

How the data were processed

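CEBPB ChIP-seq of NCM460 cells gave 1 deposited peak list per ChIP sample, called over input, and 1 deposited IDR table of the pair. The submitters' processing notes list Bowtie2 2.3.4, MACS2 2.1.2, bedtools 2.25.0, SAMtools 1.9 and FastQC 0.11.7 and the build hg19. In the sources used here, settings, input pairing and duplicate removal are not given. The deposited lists hold, per summit, a fold ratio over background, a score, and a p-value and q-value on the −log10 scale, with every q-value at most 0.05. The deposited IDR table gives −log10 values of the IDR, which is at most 0.05 throughout.

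Fragments and background were solved per summit from the deposited fold and −log10 p, taking fold as the pileup plus 1 over the background plus 1 and p as the Poisson tail. With 0.927 and 0.800 scaled units per read in replicates 1 and 2, 100% of summits gave whole reads within 0.005 of −log10 p. For 1.53% and 1.80% of summits a second solution lay within that tolerance, and the closest was kept; the step and the library test were tested on simulated data. Background is on the scaled pileup, fragments are not; its floor was 1.00 and 1.36. Total reads are not held in the lists, so depth is unknown beyond fragments per summit.

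Entries of the IDR table that share an interval count as 1 site, keeping the pair of highest mean fold. Distances run between interval edges. Bands are hg19 (circlize 0.4.16, R 4.3.3); positions count from 1. The running median share used 1001 sites. Intervals are at the 95% level and cover counting error only. The software was Python 3.11.15 with pandas 2.3.3, SciPy 1.17.1, matplotlib 3.10.9, NumPy 2.4.6 and statsmodels 0.14.6. Named sites are the 10 of highest mean fold, the 5 farthest from another peak (1 of them is not reported here), the 2 on either side of the limit, the 3 of smallest adjusted p and the bands and chromosomes at the extremes; the sites in 6q21 and 5p15.32, the runs, and the deciles, distance classes and equal-height class were chosen after values were seen. Members and lists were chosen with earlier results of these data known. Alternatives changed the distance, the neighbours counted, the IDR limit, the replicate and the expected share.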

Additional observations from a re-analysis of the deposited data

How the results depend on the processing

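The number of isolated sites follows its definition. The 610 became 1962 at 25 kb, 158 at 100 kb, 312 among sites at an IDR of at most 0.01 and 6276 where only IDR intervals counted as neighbours. With only neighbours of a q-value of 0.01 or less it was 629, and it was between 755 and 1499 when the peaks of 1 replicate were left out, 1499 without replicate 2, whose list is longer. The fold ratio of 0.88 was 0.91 at 25 kb, 0.86 at 100 kb and 0.93 at an IDR of at most 0.01, and 0.90 without either replicate (0.902 and 0.905). The background ratio of 0.55 was 0.67, 0.47 and 0.63 in the same settings and 0.583 to 0.600 without a replicate. At 100 kb the median background of the isolated sites was the floor itself, 1.00 and 1.36 units in replicates 1 and 2. The 0.47 is thus bounded by that minimum. The width ratio was taken on the peaks of each replicate, not on the merged intervals, and was 0.82 as the mean of 0.80 and 0.83. It was 0.85 at 25 kb and 0.79 at 100 kb, and 0.822 to 0.848 without a replicate. All these ratios stayed below 1. The 18.4% in the darkest bands was 13.6% at 25 kb and 27.2% at 100 kb, and 18.1 to 19.1% without a replicate. The 12 sites that differed between the libraries became 51 of 1962 at 25 kb and 2 of 158 at 100 kb, where 2.92% of all sites were called. They became 7 of 312 at the stricter IDR, where 2.39% of all sites were called, and 21 of 610 with 1 expected share for all heights, where 3.62% were. The cause was not tested. At the lowest fragments only a large difference between libraries can be called. No paired analysis was possible because no file of the input samples alone was analysed, so ChIP and input values could not be paired.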
